A study of Mus musculus with 6 samples.

Results

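The collagen genes and the genes whose products modify, cleave and cross-link collagen were followed in RNA sequencing of mouse lung alveolar epithelial type 2 (AT2) cell preparations, the cells that make surfactant. Members were taken by gene name: every collagen chain other than those of type IV, the prolyl 4-hydroxylases, lysyl hydroxylases and lysyl oxidases, and P3h1, Crtap, Ppib, Serpinh1, Bmp1, Pcolce and Sparc. They were 44 of the 13931 genes in the deposited tables, 26 chains and 18 processing genes, with 77 of the 24647 listed transcripts. A further 12 chains, among them Col2a1 and Col10a1 of cartilage, have no listed values and so were not analysed here. The 3 control libraries came from C57BL/6 mice given PBS and the other 3 from C57BL/6 mice given bleomycin at 1 U/kg, a drug that breaks DNA and is widely used to model lung fibrosis in mice. The series assigns 3 mice to each exposure, and its wording does not settle whether "multiple" means repeated doses or several mice. No genetic alteration is named, and the sources used here give neither age, route and time of harvest nor the method of cell isolation. Values of a group are listed in the order of replicates 1, 2 and 3.

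Collagen chains fold in threes into a triple helix inside the endoplasmic reticulum. Prolyl 4-hydroxylases and lysyl hydroxylases modify prolines and lysines of the nascent chains, the P3h1, Crtap and Ppib complex modifies single prolines, and the chaperone Hsp47, the product of Serpinh1, holds the helix together on its way out of the cell. Outside, proteinases such as Bmp1 remove the end propeptides and lysyl oxidases cross-link the fibrils. In the lung most fibrillar collagen is made by fibroblasts, and its accumulation after bleomycin is the classical sign of fibrosis.

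The preparations were not of AT2 cells alone. The 8 AT2 markers summed to 16914 to 24824 FPKM in PBS and to 3065 to 7145 FPKM in bleomycin libraries, FPKM being fragments normalized to transcript length and to the mapped total. All 10 fibroblast markers, none of them a collagen, were also found, summing to 5665 to 8156 FPKM with PBS and to 1224 to 3674 FPKM with bleomycin. The fibroblast-defining Pdgfra stood at 126, 156 and 184 FPKM with PBS and at 30.1, 63.2 and 100 FPKM with bleomycin. Markers of endothelium (8 genes) summed to 32.0 to 38.5 and 217 to 381 FPKM, and those of leukocytes (8 genes) to 18.1 to 30.04 and 429 to 692 FPKM, in the same order. Smooth muscle and pericyte markers (8 genes) summed to 134 to 151 and 62.6 to 84.6 FPKM, and mesothelial markers (5 genes) to 37.9 to 114 and 43.8 to 65.2 FPKM. Airway markers (4 genes) summed to 10041, 3025 and 2160 FPKM with PBS, where replicate 1 stood apart, and to 1928 to 3478 FPKM with bleomycin. Alveolar type 1 markers (6 genes) summed to 395 to 577 and 264 to 376 FPKM, but did not move together. Ager, most of their PBS sum, was at 318, 230 and 253 FPKM with PBS and at 119, 134 and 85.9 FPKM with bleomycin. Hopx went the other way, from 75.7, 71.7 and 17.1 FPKM to 138, 121 and 97.0 FPKM. Aqp5 was lower with bleomycin without overlap, and Pdpn, Rtkn2 and Cav1 overlapped between groups. None of the defining markers was at 0, although Ptprc of leukocytes was at 0.0706 FPKM in PBS replicate 1. In such bulk preparations, fewer cells of a type and less RNA per cell cannot be told apart.

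Collagen and processing transcripts were lower after bleomycin, and no member rose. Of the 40 members with at least 1 FPKM in 3 libraries, 19 fell, 12 of 23 chains and 7 of 17 processing genes (limma on log2(FPKM + 1), Benjamini-Hochberg adjusted p under 0.05 over 12326 genes), where 7.34% of all tested genes fell. One of them, Loxl4, reached that level only in the PBS libraries, so that its place among the tested genes already required a difference. At an unadjusted limma p under 0.05, 15 chains and 9 processing genes were lower and none higher. The share of all genes at that threshold is not given here, so these counts only describe the members. The median log2 fold change, bleomycin minus PBS, was -1.21 over the tested chains and -0.86 over the tested processing genes, against 0.09 over all tested genes. With libraries scaled to equal medians or quantile normalized, which moved the median of all genes to -0.07 and -0.08, those of the chains were -1.36 and -1.35 and those of the processing genes -1.02 and -0.97. The share of rises among all called genes, 67.4% on unscaled values, was 51.1% and 49.8% under these scalings, and no member rose under either. The values of the groups did not overlap, with bleomycin lower, for 16 of the 26 chains and 10 of the 18 processing genes, where 15.6% of all 13931 genes were of that kind. Of these 26 genes 7 missed the threshold, Col6a3, Col13a1, Col18a1, Col7a1, Plod2, P4ha1 and Loxl3.

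The number of chains that passed moved with single libraries. No chain passed without PBS replicate 1 or PBS replicate 3 (limma, 13 and 12 at an unadjusted p under 0.05). The share of all genes at that unadjusted threshold is not given here, so the 13 and 12 only describe the members. At the adjusted threshold, 1 chain passed without bleomycin replicate 2, 3 without PBS replicate 2, 7 without bleomycin replicate 1 and 15 without bleomycin replicate 3. Calls over the whole table moved as well. Of all tested genes, 3.84%, 4.17% and 3.71% fell without PBS replicates 1, 2 and 3, against 7.34% with every library. Without bleomycin replicates 1, 2 and 3 the shares were 4.16%, 4.12% and 7.08%. Of the 19 members that fell, Bmp1, Loxl1 and Pcolce passed in each of the 6 fits with 1 library left out, and the other 16 each missed the threshold in at least 3 of them.

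**Figure D1:**
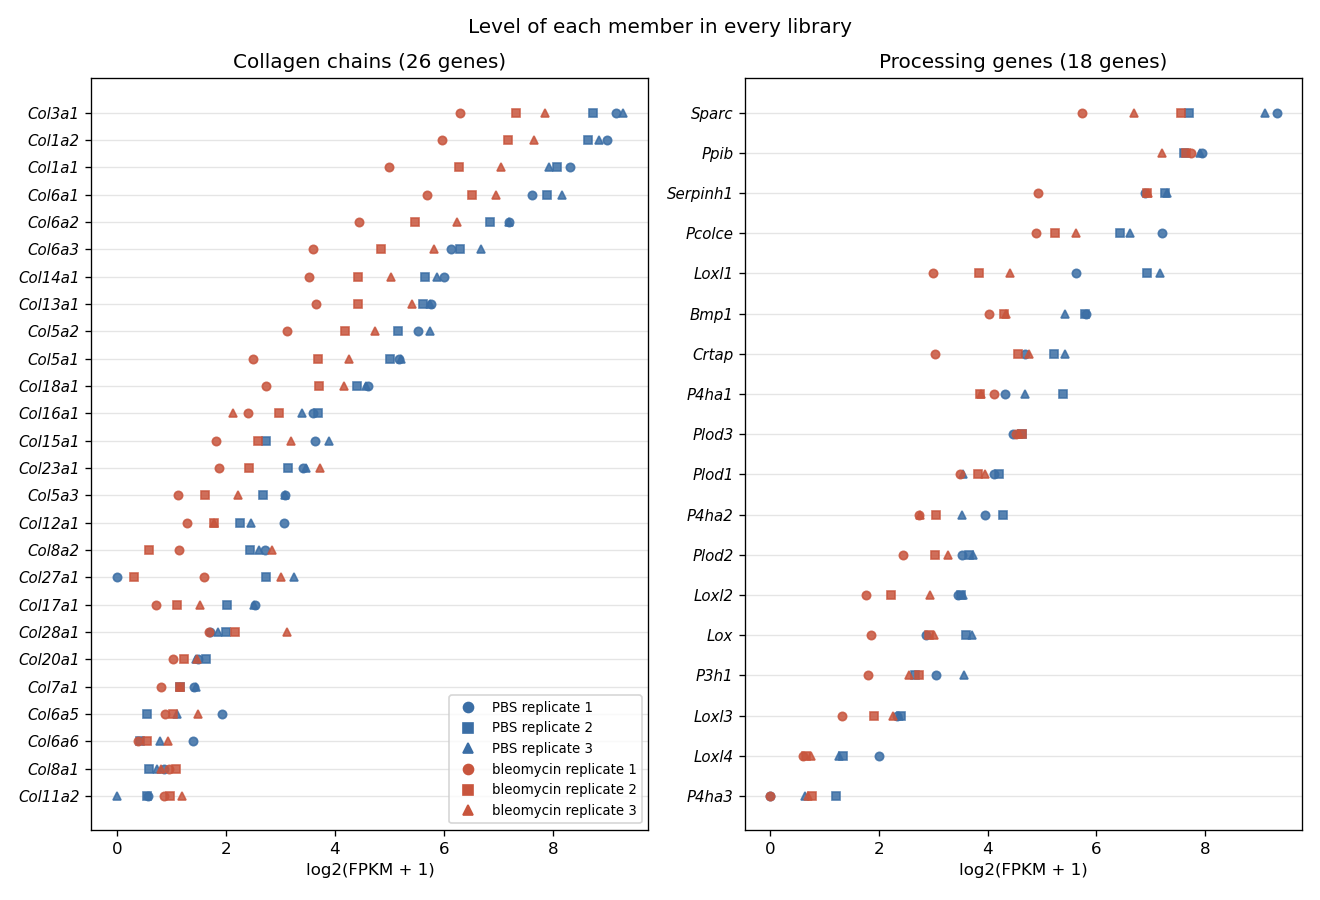
Level of each of the 44 members in every library on the log2(FPKM + 1) axis, 26 collagen chains on the left and 18 processing genes on the right, ordered by their PBS mean (blue PBS, red bleomycin, 1 symbol per replicate). The 6 most abundant chains lie apart by group, from 31.3 to 155 FPKM on average with bleomycin and from 82.5 to 537 with PBS, while the values of Plod3 coincide.

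**Figure D2:**
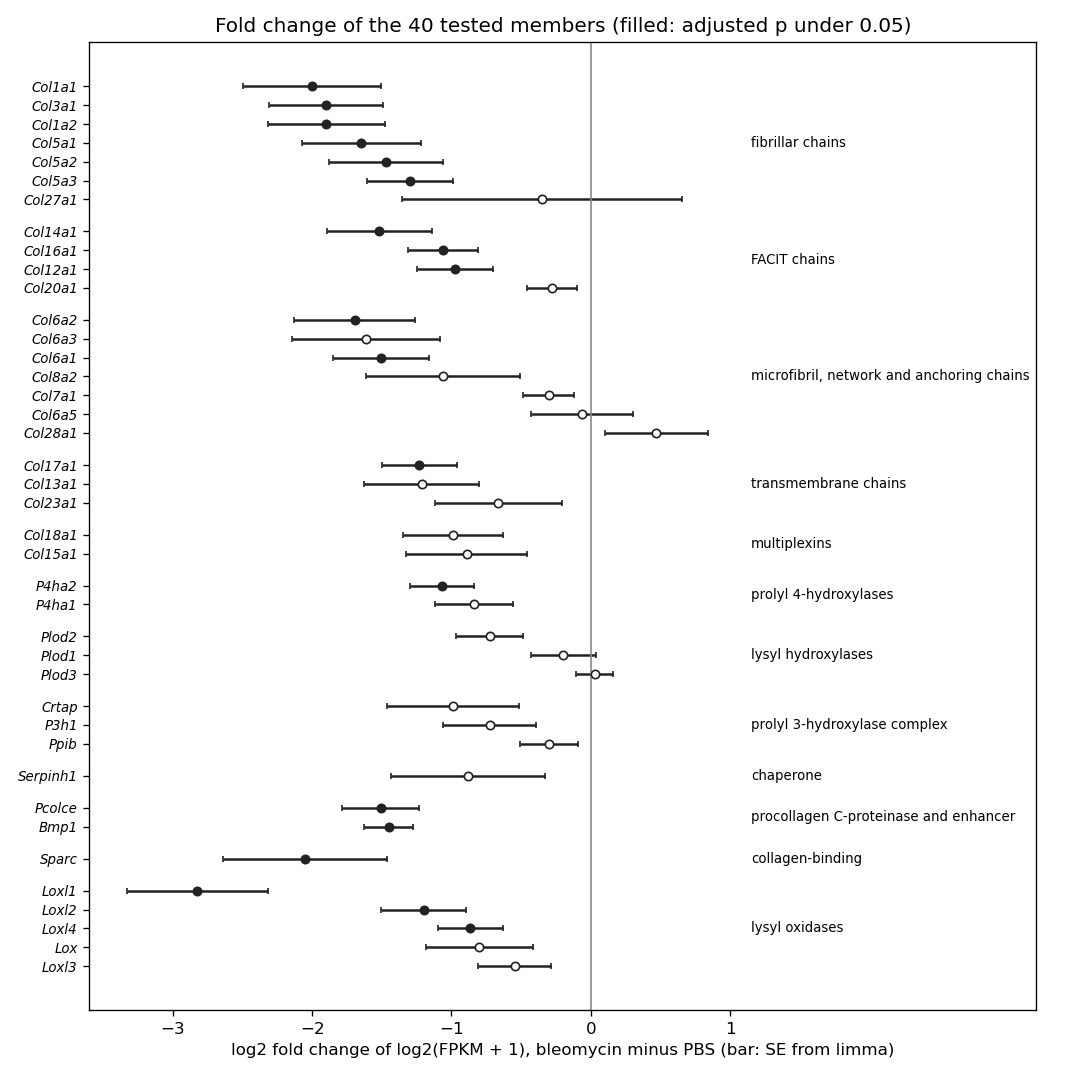
Log2 fold change of log2(FPKM + 1), bleomycin minus PBS, with the limma SE, for the 40 tested members grouped by role; filled points passed at an adjusted p under 0.05. The 19 filled points lie between -2.82 (Loxl1) and -0.86 (Loxl4), and only the open points of Col28a1 and Plod3 lie to the right of 0.

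Fibrillar chains build the rope-like fibres of the interstitium, and 6 of the 7 tested ones fell, where 7.34% of all tested genes fell. Col3a1, the chain of type III collagen, was the most abundant (ENSMUSG00000026043.18, mm10 chromosome 1, 45311538 to 45349706, plus strand). It measured 566, 423 and 623 FPKM with PBS and 77.2, 159 and 231 FPKM with bleomycin. Every bleomycin value was below every PBS value, with replicate 1 the lowest, and the log2 fold change was -1.90 ± 0.41 (SE, limma adjusted p = 0.0198). Col1a2, of type I collagen, stood at 507, 401 and 460 FPKM with PBS and at 61.7, 143 and 199 FPKM with bleomycin (-1.90 ± 0.42, limma adjusted p = 0.0221). Its partner Col1a1 stood at 318, 267 and 242 FPKM and at 30.8, 76.3 and 131 FPKM (-2.001 ± 0.49, limma adjusted p = 0.0317). In both, the highest bleomycin library remained below the lowest PBS library.

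The RefSeq window of 250 bases before the start of Col3a1 is shown because that start is the one of its main listed transcript, which carried on average 99.3% of the gene's FPKM with PBS (GRCm38.p6, the mm10 assembly, chr1:45311288-45311537, plus strand); capitals mark the single TATAAA.
Col3a1: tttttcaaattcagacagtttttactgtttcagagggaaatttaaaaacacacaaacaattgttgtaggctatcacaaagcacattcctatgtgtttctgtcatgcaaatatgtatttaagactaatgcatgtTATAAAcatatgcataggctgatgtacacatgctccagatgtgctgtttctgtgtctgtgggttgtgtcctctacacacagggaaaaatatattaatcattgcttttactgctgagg

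Col5a1, Col5a2 and Col5a3, the chains of type V collagen, which is known to nucleate type I fibrils, were scarcer than those of types I and III. Col5a1 was at 35.3, 31.2 and 35.9 FPKM with PBS and at 4.67, 11.9 and 18.1 FPKM with bleomycin (-1.65 ± 0.43, limma adjusted p = 0.0365). Col5a2, which lies next to Col3a1 on chromosome 1 on the other strand (45374321 to 45503282), was at 45.1, 34.8 and 52.7 FPKM and at 7.68, 17.1 and 25.5 FPKM (-1.47 ± 0.41, limma adjusted p = 0.0465). Col5a3 was at 7.46, 5.40 and 7.52 FPKM and at 1.17, 2.07 and 3.66 FPKM (-1.30 ± 0.31, limma adjusted p = 0.0276). All 3 genes of type V thus had their lowest value in bleomycin replicate 1 and no overlap between groups. Of the other fibrillar chains, Col27a1 was listed at 0, 5.65 and 8.55 FPKM with PBS and at 2.04, 0.245 and 7.11 FPKM with bleomycin, with the bleomycin values inside the wide PBS range, and its 0 can be a failed estimate. Col11a2 was below the filter and was the only member whose bleomycin values, 0.818, 0.966 and 1.29 FPKM, all exceeded its PBS values, 0.478, 0.478 and 0 FPKM (27% of all genes did not overlap in that direction).

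The fibrillar calls were lost without single libraries. Without PBS replicate 1 the limma adjusted p of the 6 genes lay between 0.0647 (Col3a1) and 0.115 (Col5a2), without PBS replicate 3 between 0.0669 (Col1a2 and Col3a1) and 0.129 (Col5a2), and without bleomycin replicate 2 between 0.0522 (Col1a2) and 0.0962 (Col5a2). Without PBS replicate 2, Col1a1, Col1a2, Col5a1 and Col5a2 had 0.0798, 0.055, 0.0821 and 0.077. Without bleomycin replicate 1, Col5a2 and Col5a3 had 0.0586 and 0.0629. In all these fits with 1 library left out the log2 fold changes stayed between -2.09 and -1.02. The call of Col5a2 was also lost with a pseudocount of 0.1 (0.0527), with no filter (0.0528) and with the highest transcript in place of the sum (0.0509).

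Ratios among the chains of types I and III overlapped between groups. The ratio of Col1a1 to Col1a2, whose products join as 2 to 1 in type I collagen, was 0.627, 0.666 and 0.527 with PBS and 0.499, 0.532 and 0.658 with bleomycin. These ranges overlapped, and the log2 ratio differed by -0.11 (exact permutation test, two-sided, p = 0.5, adjusted over 3 ratios p = 0.75), and by -0.23 (without bleomycin replicate 3) to -0.03 (without bleomycin replicate 1) with 1 library left out. Col3a1 to Col1a1 was 1.78, 1.59 and 2.57 with PBS and 2.51, 2.08 and 1.76 with bleomycin, again with overlap and a log2 difference of 0.11 (exact permutation p = 0.8, adjusted p = 0.8), which changed sign to -0.03 without PBS replicate 2 and to -0.02 without bleomycin replicate 1. With 3 libraries against 3 the smallest p of this test is 0.1, so no ratio could pass. Col1a1, Col1a2 and Col3a1 together made up 61.5% to 66.5% of the FPKM of all 26 chains with PBS and 53.9% to 57.8% with bleomycin, a share without overlap. The 3 main chains of type VI made up 19.6% to 24.8% and 24.7% to 26.1%.

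**Figure D3:**
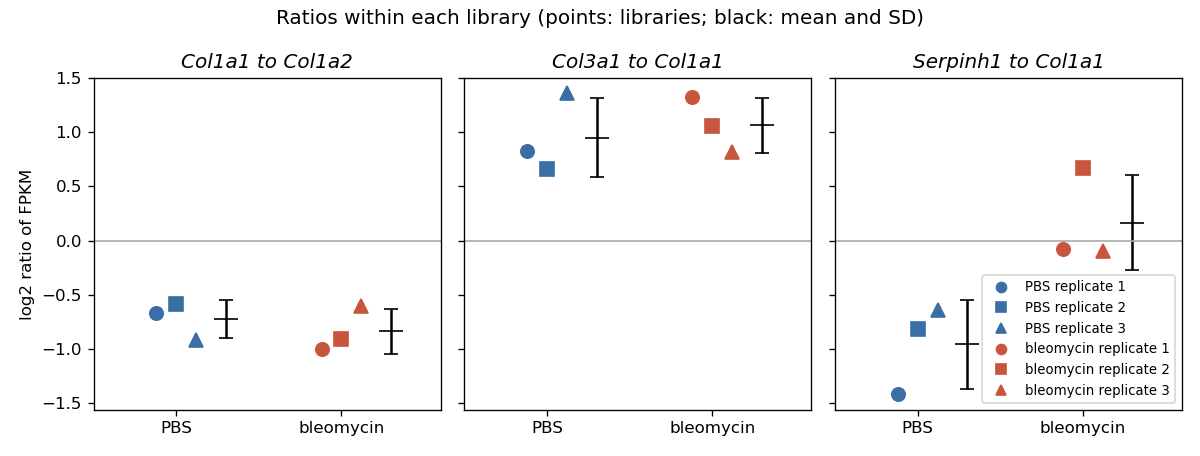
Log2 ratio of FPKM within each library for 3 pairs of members (points, libraries; black, mean and SD over 3 libraries per group). The Col1a1 to Col1a2 and Col3a1 to Col1a1 ratios overlap between groups, and the Serpinh1 to Col1a1 ratio lies higher in the bleomycin libraries, with a mean of 0.17 against -0.96.

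Summed over the 26 chains, collagen measured 2091, 1758 and 2153 FPKM with PBS and 315, 655 and 1009 FPKM with bleomycin, or 0.672% to 0.850% and 0.116% to 0.389% of all listed FPKM. The sum of the fibroblast markers followed the same order of libraries with bleomycin, at 1224, 2724 and 3674 FPKM, although Tcf21, Dcn and Lum did not. Of the 10 markers 5 fell and none rose, where 7.34% of all tested genes fell and 15.2% rose. Divided by that marker sum, the chain sum was 0.256, 0.310 and 0.359 in PBS libraries and 0.257, 0.240 and 0.275 in bleomycin libraries, so these ratios overlapped between groups. Without Gsn, the most abundant marker of the list, the ratios were 0.491, 0.636 and 0.741 and 0.670, 0.497 and 0.545. By group mean, Inmt was the most abundant of the markers left, at 1866 FPKM with PBS and 621 FPKM with bleomycin. The order of bleomycin replicates 1, 2 and 3 from lowest to highest was shared by 31 of the 44 members, and by 19.3% of all tested genes and 33.9% of the genes that fell. AT2 markers, all 8 of which fell, had their lowest bleomycin sum in replicate 3 (3065 FPKM), the library with the most collagen of the 3. The part of fibroblast content in the lower chain levels was not tested.

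**Figure D4:**
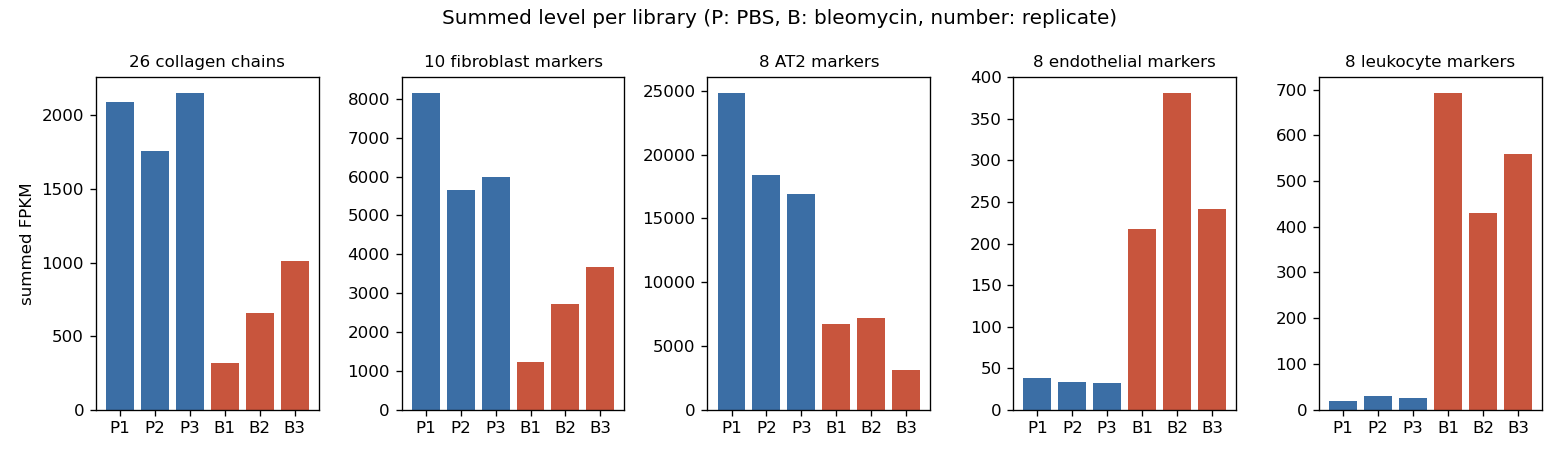
Summed FPKM per library of the 26 collagen chains and of 4 marker lists, with a separate axis from 0 for each (blue PBS, red bleomycin). Chains and fibroblast markers are lower with bleomycin and lowest in bleomycin replicate 1, at 315 and 1224 FPKM, while endothelial and leukocyte markers are higher.

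Of the FACIT chains, which coat fibrils and link them to other matrix, 3 of 4 fell (7.34% of all tested genes did). Col14a1 was at 63.1, 49.4 and 57.5 FPKM with PBS and at 10.4, 20.5 and 31.8 FPKM with bleomycin (-1.52 ± 0.37, limma adjusted p = 0.0317). Col12a1 was at 7.40, 3.76 and 4.49 FPKM and at 1.45, 2.44 and 2.43 FPKM (-0.98 ± 0.27, limma adjusted p = 0.0465). Neither gene overlapped between groups, although the high PBS value of Col12a1 came from a short transcript, Col12a1-003, listed at 4.94 FPKM in PBS replicate 1 and at 0 in the other 5 libraries. Its full-length transcript alone did not pass (-0.55, limma adjusted p = 0.23 over transcripts). Col20a1 stayed near the filter, at 1.74 to 2.10 FPKM with PBS and 1.04 to 1.77 with bleomycin. The call of Col14a1 was lost without any 1 PBS library (0.0675 to 0.0925) or bleomycin replicate 2 (0.0772), and that of Col12a1 without any 1 of the 6 libraries (0.053 to 0.131), with a pseudocount of 5 (0.0518) and with no filter (0.0528).

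Col16a1 also fell, and has 2 listed transcripts. The gene stood at 11.2, 11.8 and 9.51 FPKM with PBS and at 4.27, 6.87 and 3.36 FPKM with bleomycin (-1.06 ± 0.25, limma adjusted p = 0.0272). The longer transcript, Col16a1-001 with 70 exons (mm10 chromosome 4, 130047840 to 130099277), was listed at 6.19, 9.56 and 6.29 FPKM with PBS and at 0, 0.245 and 0 FPKM with bleomycin; it passed the filter of 1 FPKM through the PBS libraries alone, so its difference is given as a description. The shorter one, Col16a1-004 with 61 exons, starts further downstream at 130055990 and was at 4.98, 2.28 and 3.22 FPKM and at 4.27, 6.63 and 3.36 FPKM (adjusted p = 0.505). The longer transcript thus carried on average 67.4% of the gene's FPKM with PBS and 1.19% with bleomycin. The listed zeros can be failed estimates of how reads were split, and the difference between the 2 transcripts was not itself tested. With the highest transcript in place of the sum the gene did not pass (adjusted p = 0.21), nor did it without any 1 library other than bleomycin replicate 2 (0.0558 to 0.0834). The 250 bases before the start of Col16a1-001, the transcript listed at or near 0 with bleomycin, are shown with the CCAAT in capitals (RefSeq, GRCm38.p6, chr4:130047590-130047839, plus strand).
Col16a1: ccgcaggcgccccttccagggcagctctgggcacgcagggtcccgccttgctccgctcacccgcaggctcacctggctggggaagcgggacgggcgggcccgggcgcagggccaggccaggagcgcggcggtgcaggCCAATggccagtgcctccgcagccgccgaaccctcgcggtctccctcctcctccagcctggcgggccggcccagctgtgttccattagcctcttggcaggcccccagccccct

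**Figure D5:**
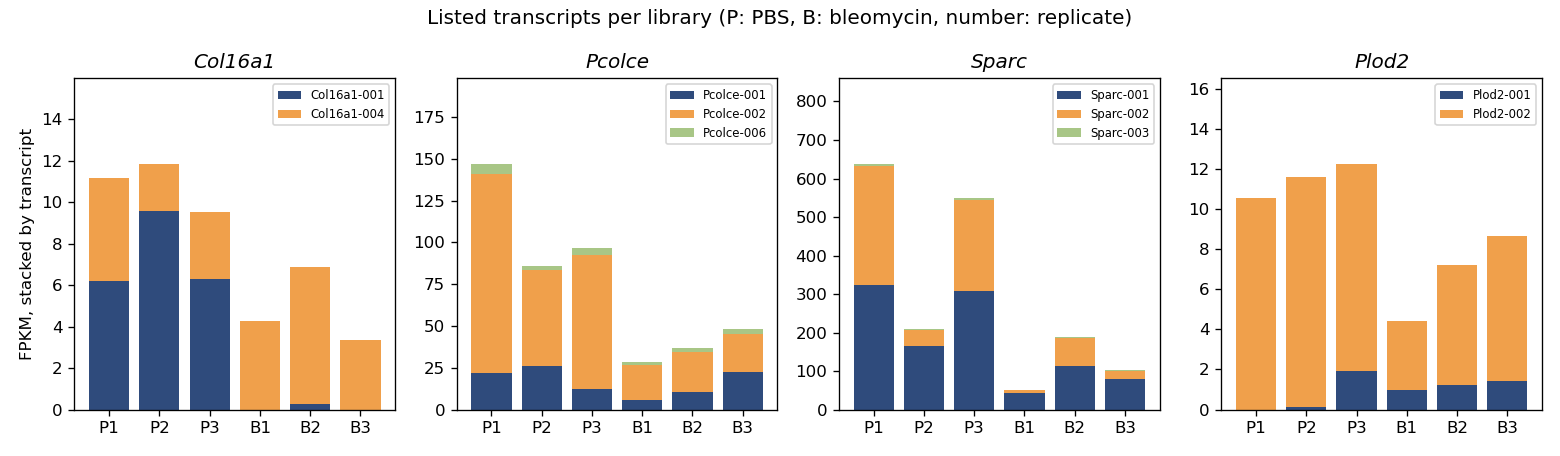
FPKM of the listed transcripts of Col16a1, Pcolce, Sparc and Plod2, stacked, in each library (P, PBS; B, bleomycin; number, replicate), with a separate axis from 0 for each gene. Col16a1-001 makes up 67.4% of the PBS bars on average and 1.19% of the bleomycin bars, while Plod2-002 makes up most of every Plod2 bar.

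Type VI collagen forms beaded microfibrils around cells, and its 3 main chains were the most abundant after those of types I and III. Col6a1 (mm10 chromosome 10, 76708792 to 76726168, minus strand) was at 196, 236 and 287 FPKM with PBS and at 50.5, 90.9 and 124 FPKM with bleomycin (-1.50 ± 0.34, limma adjusted p = 0.0247). Col6a2, beside it on the same strand (76595762 to 76623630), was at 145, 114 and 146 FPKM and at 20.7, 43.3 and 74.5 FPKM (-1.70 ± 0.43, limma adjusted p = 0.0357). Col6a3 was at 69.2, 77.3 and 101 FPKM and at 11.1, 27.8 and 55.2 FPKM (-1.62 ± 0.53), with a limma adjusted p of 0.0733 that misses the threshold and one of 0.0201 without bleomycin replicate 3, its highest bleomycin library. None of the 3 chains overlapped between groups. Leaving out the highest bleomycin or the lowest PBS library of a gene favours a smaller p. Such values, here and below, are therefore no support for a fall. Col6a1 and Col6a2 missed the threshold without any 1 PBS library (0.0512 to 0.10) or without bleomycin replicate 2 (0.0624 and 0.087). By PBS mean the chains ranked Col3a1 (537 ± 103 FPKM, SD, n = 3), Col1a2 (456 ± 53.4), Col1a1 (276 ± 38.6), Col6a1 (240 ± 45.7), Col6a2 (135 ± 18.3) and Col6a3 (82.5 ± 16.5). Col3a1 and Col1a2 overlapped in this order, as did Col1a1 and Col6a1. With bleomycin Col6a1 (88.4 ± 36.7) ranked above Col1a1 (79.4 ± 50.2), again with overlapping values.

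Other network and anchoring chains were scarce and none of them passed. Col8a2, a network chain, was at 5.59, 4.44 and 5.11 FPKM with PBS and at 1.21, 0.507 and 6.21 FPKM with bleomycin, where only replicate 3 reached the PBS level (limma adjusted p = 0.216, and 0.00815 without that library, its highest). Col28a1 had the only positive fold change of a tested chain (0.47 ± 0.37, limma adjusted p = 0.40), from 2.27, 3.03 and 2.60 FPKM to 2.23, 3.48 and 7.75 FPKM. Col7a1, of the anchoring fibrils, had means of 1.55 and 1.07 FPKM, and Col6a5 of 1.47 and 1.23 FPKM. Col6a6 and Col8a1 were below the filter, with means of 0.901 and 0.565 FPKM and of 0.664 and 0.939 FPKM.

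Transmembrane chains were low apart from Col13a1. Col17a1, a chain of the hemidesmosome that anchors epithelium, was at 4.77, 3.04 and 4.72 FPKM with PBS and at 0.656, 1.16 and 1.90 FPKM with bleomycin (-1.23 ± 0.27, limma adjusted p = 0.0206). Its groups did not overlap, and the call was lost without PBS replicate 1 or 3 (0.0682 and 0.0704), and without replicate 1 or 2 of bleomycin (0.0575 and 0.0633), and with the highest transcript in place of the sum (0.0513). Col13a1, a cell adhesion collagen, was at 53.6, 48.2 and 52.3 FPKM and at 11.6, 20.4 and 41.4 FPKM (-1.21 ± 0.42, limma adjusted p = 0.0817). The PBS values lay close together and the bleomycin values were lower and more spread, and without bleomycin replicate 3 the adjusted p was 0.0112. Col23a1 had PBS values of 7.79 to 10.04 FPKM and bleomycin values of 2.67, 4.35 and 12.3 FPKM, of which the last lay above all PBS libraries (limma adjusted p = 0.344, and 0.0253 without bleomycin replicate 3). For Col13a1 and Col23a1 the library left out was the highest bleomycin library, which favours a smaller p.

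The multiplexins, basement membrane collagens whose ends can be released as fragments such as endostatin from Col18a1, did not pass. Col18a1 was at 23.4, 20.1 and 22.8 FPKM with PBS and at 5.65, 12.1 and 17.0 FPKM with bleomycin (-0.99 ± 0.36, limma adjusted p = 0.0961, and 0.0398 without bleomycin replicate 3, its highest). Its groups did not overlap. Col15a1 was at 5.69 to 13.9 and at 2.52 to 8.12 FPKM, with overlap (limma adjusted p = 0.192). Both are also made by endothelium, whose 8 markers rose in the same libraries with a median log2 fold change of 2.67, where 15.2% of all tested genes rose. Whether endothelial transcripts add to the bleomycin values of Col18a1 and Col15a1 was not tested.

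Among the intracellular enzymes, the prolyl 4-hydroxylases make the hydroxyproline that keeps the helix stable at body temperature. P4ha2, of a catalytic subunit, was at 14.4, 18.4 and 10.6 FPKM with PBS and at 5.69, 7.31 and 5.73 FPKM with bleomycin (-1.07 ± 0.23, limma adjusted p = 0.020). P4ha1, of the other widely used subunit, was at 18.9, 40.6 and 24.6 FPKM and at 16.3, 13.5 and 13.8 FPKM (-0.84 ± 0.28, limma adjusted p = 0.0786, and 0.0462 without PBS replicate 1, its lowest PBS library). The groups did not overlap in either gene. P4ha2 missed the threshold without PBS replicate 1 or 2 (0.0603 and 0.0525), and without replicate 1 or 3 of bleomycin (0.0653 and 0.0516). P4ha3 was below the filter and listed at 0 in 1 library of each group.

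The lysyl hydroxylases, whose hydroxylysine carries sugars and cross-links, did not pass, and that of Plod3 differed least of the 40 tested members. Plod3, which also transfers glucose to the galactose on hydroxylysine, was at 21.1, 23.8 and 22.5 FPKM with PBS and at 22.0, 23.7 and 23.0 FPKM with bleomycin. Its log2 fold change was 0.03 ± 0.13 (limma adjusted p = 0.906), with the 2 groups interleaved. Plod1 was at 16.4, 17.4 and 10.6 FPKM and at 10.3, 13.2 and 14.4 FPKM (-0.20 ± 0.23, limma adjusted p = 0.589). Plod2, the enzyme of the telopeptide lysines, was at 10.6, 11.6 and 12.2 FPKM and at 4.41, 7.20 and 8.64 FPKM (-0.73 ± 0.24, limma adjusted p = 0.0757) without overlap. It passed with equal medians (0.0393), quantile normalization (0.043) or without bleomycin replicate 3, its highest bleomycin library (0.0481).

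Plod2 has 2 listed transcripts that differ by 1 exon, and the longer form is the one known to act on telopeptides. In GENCODE M21, Plod2-002 holds an exon of 63 bases, 21 codons, that Plod2-001 skips (exon 14 of 20, mm10 chromosome 9, 92601985 to 92602047, plus strand). It is shown in capitals between 30 bases of the neighbouring exons on either side, which the shorter transcript joins directly.
Plod2 exon: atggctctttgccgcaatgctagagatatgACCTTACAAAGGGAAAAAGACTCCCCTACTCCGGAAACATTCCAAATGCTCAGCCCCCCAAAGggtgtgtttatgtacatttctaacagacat
Plod2-002 was at 10.6, 11.5 and 10.3 FPKM with PBS and at 3.42, 5.95 and 7.20 FPKM with bleomycin (-0.90, limma adjusted p = 0.07 over transcripts). Plod2-001 was at 0, 0.135 and 1.93 FPKM and at 0.987, 1.25 and 1.44 FPKM. The exon-holding transcript therefore carried on average 94.4% of the gene's FPKM with PBS and 81.2% with bleomycin, and these values rest on a short transcript that was under 2 FPKM in every library.

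For comparison with Col3a1 and Col16a1, the 250 bases before the start of Plod3, whose level did not pass in either direction, are shown with the CCAAT of the reverse strand in capitals, where it reads as the reverse complement (RefSeq, GRCm38.p6, chr5:136986769-136987018, plus strand).
Plod3: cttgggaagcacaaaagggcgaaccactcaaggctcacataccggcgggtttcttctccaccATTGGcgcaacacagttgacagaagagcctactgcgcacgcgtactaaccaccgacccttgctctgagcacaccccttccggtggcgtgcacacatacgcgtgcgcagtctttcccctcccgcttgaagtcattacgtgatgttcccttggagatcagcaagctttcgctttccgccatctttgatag
RefSeq windows were found for 34 of the 44 members, among them 12 of the 19 that fell. Some windows, such as those of Col1a2, Col6a1 and Col17a1, end at a start that no listed transcript has. CCAAT on either strand was present in 9 of the 34 and in 37.5% of all 27025 genes with a window. TATAAA on the gene's strand was present in 5 of 34 and in 8.94% of all genes. GGGCGG on either strand was present in 23 of 34 and in 35.4% of all genes. The heat shock pair GAANNTTC was in none of the 34 and in 7.73% of all, and the endoplasmic reticulum stress element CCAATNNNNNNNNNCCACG, which contains a CCAAT, in none and in 0.130% of all. These matches only describe the letters in the windows. Of the 12 genes that fell, 4 held CCAAT, 2 TATAAA and 8 GGGCGG.

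None of the 3 genes of the prolyl 3-hydroxylase complex passed. Ppib, the peptidyl-prolyl isomerase cyclophilin B, was the most abundant of them, at 246, 195 and 240 FPKM with PBS and 213, 199 and 146 FPKM with bleomycin (-0.30 ± 0.21, limma adjusted p = 0.35), and its groups overlapped. Crtap, the helper protein of the complex, was at 24.6, 36.2 and 41.7 FPKM and at 7.18, 22.6 and 25.98 FPKM (-0.99 ± 0.47, limma adjusted p = 0.185). P3h1, its enzyme, was at 7.24, 5.33 and 10.8 FPKM and at 2.48, 5.69 and 4.83 FPKM (-0.73 ± 0.33, limma adjusted p = 0.169). Replicate 1 was the lowest bleomycin library for Crtap and P3h1 but the highest for Ppib.

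Serpinh1, the gene of the collagen chaperone Hsp47 (mm10 chromosome 7, 99345376 to 99353239, minus strand), was at 118, 152 and 156 FPKM with PBS and at 29.3, 121 and 122 FPKM with bleomycin. Bleomycin replicates 2 and 3 lay within the PBS range and replicate 1 well below it, and the gene did not pass (-0.88 ± 0.55, limma adjusted p = 0.296). Without bleomycin replicate 1 its log2 fold change was -0.21 (adjusted p = 0.528). In relation to Col1a1, Serpinh1 stood at 0.373, 0.568 and 0.642 in PBS libraries and at 0.950, 1.59 and 0.935 in bleomycin libraries. Every bleomycin ratio exceeded every PBS ratio, by 1.13 on the log2 scale (exact permutation test, two-sided, p = 0.1, the smallest possible, adjusted p = 0.3), and by 0.87 to 1.29 with any 1 library left out.

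The extracellular processing genes gave the calls that held in every fit with 1 library left out. Bmp1, the procollagen C-proteinase (ENSMUSG00000022098.9, mm10 chromosome 14, 70474557 to 70520260, minus strand), was at 55.4, 54.2 and 42.0 FPKM with PBS and at 15.4, 18.8 and 19.3 FPKM with bleomycin. The groups were far apart in relation to their spread (-1.45 ± 0.18, limma adjusted p = 0.00212, at most 0.0119 with 1 library left out). Pcolce, which enhances that cleavage, was at 147, 86.0 and 96.9 FPKM and at 28.6, 36.6 and 48.1 FPKM (-1.51 ± 0.27, limma adjusted p = 0.0108, at most 0.0393). Its main transcript Pcolce-002 fell from 119, 57.3 and 80.0 FPKM to 20.9, 23.9 and 22.6 FPKM (limma adjusted p = 0.00747 over transcripts), whereas Pcolce-001 overlapped between groups, at 12.3 to 26.1 and 5.69 to 22.7 FPKM.

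Sparc, of a matricellular protein that binds collagen, varied widely within groups, with the largest SE of the members that fell. It measured 637, 208 and 549 FPKM with PBS and 51.9, 188 and 102 FPKM with bleomycin. The lowest PBS value lay just above the highest bleomycin value, and the call was marginal (-2.05 ± 0.59, limma adjusted p = 0.0497). It was lost without PBS replicate 1 or 3 (both 0.136), and without replicate 1 (0.127) or 3 (0.102) of bleomycin, and with a pseudocount of 0.1 (0.0542), no filter (0.0574), quantile normalization (0.0539) or no variance trend (0.0502).

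Lysyl oxidases start the cross-links of collagen and elastin, and 3 of the 5 fell (7.34% of all tested genes did). Loxl1, known for its part in elastic fibre upkeep (ENSMUSG00000032334.9, mm10 chromosome 9, 58287723 to 58313212, minus strand), was at 48.1, 121 and 143 FPKM with PBS and at 6.997, 13.3 and 20.3 FPKM with bleomycin. It had the largest fold change of the 40 tested members (-2.82 ± 0.51, limma adjusted p = 0.0104), a 7.69-fold difference of means, and passed in each fit with 1 library left out (at most 0.0393). Loxl2, a cross-linking enzyme studied in fibrosis, was at 9.99, 10.4 and 10.7 FPKM and at 2.37, 3.66 and 6.70 FPKM (-1.20 ± 0.31, limma adjusted p = 0.0351). Its PBS values were almost equal, and the call was lost without any 1 library other than bleomycin replicate 3 (0.0739 to 0.0991). Loxl4 was at 2.98, 1.53 and 1.39 FPKM and at 0.518, 0.566 and 0.679 FPKM (-0.86 ± 0.23, limma adjusted p = 0.0413), a call lost without any 1 of the 6 libraries (0.0578 to 0.109) and with a pseudocount of 5 (0.0596). Loxl4 reached 1 FPKM only with PBS, so the filter itself selected it for being higher there; with no filter its adjusted p was 0.0428. Lox, the founding enzyme of the family, was at 6.29, 11.2 and 12.01 FPKM and at 2.59, 6.52 and 7.11 FPKM with overlap (limma adjusted p = 0.185), and Loxl3 at 4.05 to 4.31 and 1.49 to 3.79 FPKM (limma adjusted p = 0.182). PBS levels thus ranked Loxl1, then Loxl2 and Lox, which overlapped, then Loxl3 and Loxl4.

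Over transcripts, 62 of the 77 were tested and 16 fell, none rising (limma, adjusted over 17759 transcripts, of which 3.97% fell). At an unadjusted limma p under 0.05, 31 were lower and none higher, and the share of all transcripts at that threshold is not given here. Of the 16, Col16a1-001 and Col17a1-004 reached 1 FPKM in the PBS libraries alone. The others included the main transcripts of Col1a1, Col1a2, Col3a1, Col6a1, Col6a2, Bmp1, Loxl1 and Pcolce. Listed with 1 transcript each were 24 members, for which a split between transcripts cannot be seen. Without PBS replicates 1, 2 or 3, 4, 5 and 4 transcripts fell, without bleomycin replicates 1 or 2, 10 and 6, and without bleomycin replicate 3, 24. The shares of all transcripts that fell in these fits are not given here.

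Of 32 further collagen pathway genes, 30 were tested, 6 fell and 2 rose (7.34% and 15.2% of all tested genes), with a median log2 fold change of -0.77. Pcolce2, a second enhancer of procollagen cleavage, was at 204, 145 and 119 FPKM with PBS and at 29.7, 31.3 and 47.2 FPKM with bleomycin (-2.07 ± 0.27, limma adjusted p = 0.00285). Creb3l1, a transcription factor that drives Col1a1 in bone, was at 33.6, 33.5 and 34.6 FPKM and at 7.59, 12.5 and 14.6 FPKM (-1.52 ± 0.24, limma adjusted p = 0.00604). Neither gene overlapped between groups. The 2 that rose were Ctsk, a collagen-degrading cathepsin, from 15.6, 9.62 and 11.1 FPKM to 38.1, 28.6 and 61.7 FPKM (1.70 ± 0.31, limma adjusted p = 0.0116), and Adamts14, of a procollagen N-proteinase, from 0.810, 0.647 and 0.806 FPKM to 4.15, 3.74 and 4.91 FPKM (1.58 ± 0.17, limma adjusted p = 0.00115). Adamts14 reached 1 FPKM only in the bleomycin libraries, so the filter itself selected it for being higher there. With no filter its adjusted p was 0.00145, and with a filter of 5 FPKM it was not tested and only Ctsk rose. Both genes were higher in every bleomycin library than in any PBS library, in preparations whose leukocyte markers all rose (8 of 8, median log2 fold change 3.94); the part of leukocytes in these rises was not tested. The number that fell was 15 with equal medians and 11 with quantile normalization, where 11.5% and 11.7% of all tested genes fell. Of the further pathway genes 2 fell without PBS replicate 1 or PBS replicate 3, 3 without bleomycin replicate 2 and 12 without bleomycin replicate 3. The shares of all tested genes were 3.84%, 3.71%, 4.12% and 7.08% in that order.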

How the data were processed

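RNA sequencing libraries were made with the KAPA stranded kit from total RNA, per the labels' protocols, 3 from PBS and 3 from bleomycin mice, grouped by sample title. The authors deposited FPKM per transcript for each library, per the file headers; HISAT2, StringTie, FastQC 0.10.1 and build mm10 are named per the submitters' processing notes, while no source used here gives annotation or settings. Low values did not fall on whole reads (at most 21.5% within 0.05 of a common step), so depth and counting error are unknown. Whether the libraries share a preparation day is not given, so p-values measure the spread between these samples.

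Transcripts were summed by gene ID, and the 12326 genes that reached 1 FPKM in at least 3 libraries were tested on log2(FPKM + 1), which understates the change of low genes, with limma 3.58.1 in R 4.3.3 (eBayes with trend, Benjamini-Hochberg adjustment, threshold 0.05, two-sided). Members that passed this filter only through 1 group had to differ. On simulated data with 200 changed genes among 12326, 35% of log2 changes of 1 and 67% of log2 changes of 2 were recovered, and 2.86% of calls were false. The changed genes were drawn from those with a mean log2(FPKM + 1) over 2, with independent normal noise. In the real data more genes were called, 905 lower and 1871 higher, so these rates need not hold there or for scarcer members. Ratios were tested by exact permutation. Values in every library were given for members that passed or had a group mean of 20 FPKM or more, and for some others chosen after their values were seen; of the further pathway genes, the 4 with the smallest adjusted p were named. Promoter windows are from RefSeq (GRCm38.p6) and exons from GENCODE M21. Members and lists were chosen with earlier results of these data known. Alternatives covered the pseudocount, filter, scaling, transcript summary, variance model, replicate block and each library left out.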

Additional observations from a re-analysis of the deposited data

How the results depend on the processing

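No member rose in any fit, and every member that fell kept its direction. With the replicate number as a block, 7 chains and 4 processing genes fell, where 4.57% of all tested genes fell. In the separate fit over transcripts with that block, 7 transcripts of members fell, and the share of all transcripts is not given here. Deviations from the group means correlated weakly between same-numbered libraries, with r of -0.0043, 0.0172 and 0.0391 for replicates 1, 2 and 3. Bleomycin replicates 2 and 3 correlated best with their own number, but replicate 1 did so with PBS replicate 2 (0.0209). These r were taken over genes, and single genes do not count as separate samples. With 3 libraries per group they cannot decide whether the numbers pair the mice. With 1 library left out, 0 to 15 chains, 3 to 5 processing genes, 4 to 24 member transcripts and 2 to 12 further pathway genes fell, and the Col3a1 to Col1a1 log2 ratio differed by -0.03 to 0.32, at -0.0306 without PBS replicate 2 and -0.0171 without bleomycin replicate 1. Of all tested genes, 3.71% to 7.08% fell in the fits with 1 library left out. Of the further pathway genes 15 fell with equal medians and 11 with quantile normalization, where 11.5% and 11.7% of all tested genes fell. With a filter of 5 FPKM, 1 further pathway gene rose. The cause of these changes was not tested, beyond the fewer libraries in fits that leave 1 out. Low members, and transcripts that share exons, are limited by the unknown depth.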
